A study of Arabidopsis thaliana with 14 samples.

Results

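The wild-type mRNA-seq libraries of an Arabidopsis thaliana study were compared between plants grown in soil and plants grown in sterile medium. The study set the wild type Col-0 against ibm1-1, a point mutant of the histone demethylase gene IBM1, and the members here were the 5 of its 14 samples that were Col-0 mRNA-seq libraries. Col-0 soil comprised 3 libraries of whole seedlings that spent 5 days on half-strength Murashige and Skoog (MS) plates and 10 days in non-sterile soil, so that they were 15 days old. Col-0 medium comprised 2 libraries of whole seedlings collected at 7 days on sterile half-strength MS agar with sucrose. None of the 5 libraries carried a mutation or received a treatment beyond these growth conditions, and all plants were in the Col-0 background.

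Age, substrate, microbes and sugar supply all differed between Col-0 soil and Col-0 medium and cannot be told apart. The study's methods name other trimming and alignment programs for the soil reads than for the medium reads, whereas the submitters' processing notes name the same programs for both, so which programs were used is not settled. The genes listed did differ, at 21912 for soil and 33602 for medium, and the reason was not tested. The time of day of harvest was not given in the sources used here. Only large differences, family-wide patterns and changes of rank were therefore described. A gene was called higher or lower when its fold change exceeded 4 and its adjusted p was below 0.05 in edgeR's quasi-likelihood test, adjusted by the Benjamini-Hochberg method over all genes tested. Levels are given as CPM (counts of a gene per 1000000 counts of its library), with totals scaled by the trimmed mean of M values (TMM), and every log2 difference is Col-0 soil over Col-0 medium. In RNA from whole seedlings, fewer cells of a type and less RNA per cell cannot be told apart.

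A seedling that leaves a sugar-containing plate for soil passes from partly heterotrophic growth to full dependence on its leaves. Chloroplasts capture light with chlorophyll bound to light-harvesting proteins, whose nuclear genes follow light, the circadian clock, sugar and chloroplast state. Roots take up iron, phosphate, nitrate and sulfate through transporters that are induced when each ion is scarce. Defence against microbes and herbivores runs largely through the hormones salicylic acid and jasmonate, and flavonoids screen the young seedling from ultraviolet light.

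Of 33602 genes listed for the medium libraries, 21912 were also listed for the soil libraries. Of these, 65 were organelle genes and were set aside, and 19802 of the 21847 nuclear genes had enough counts to be tested. The gene lists below lost members in the same way, and counts of called members are over the tested ones. Total counts were 27001069, 19957585 and 24413867 in Col-0 soil, against 19924658 and 21411230 in Col-0 medium. Spearman correlations across genes were 0.997 among soil libraries, 0.991 between the medium libraries and 0.903 to 0.911 between soil and medium. Genes are not independent replicates, so these values describe the libraries. Organelle genes took 0.026 to 0.028% of the soil counts and 1.84 to 1.94% of the medium counts.

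The test called 1453 of 19802 genes, which is 7.34%. Of these, 781 (3.94%) were higher and 672 (3.39%) were lower in Col-0 soil. Without scaling factors beyond library size the split was 661 higher and 853 lower, and the median over all genes moved to -0.24, against -0.005 with TMM. Values of the 3 soil libraries did not overlap those of the 2 medium libraries for 14662 genes (74%), so non-overlap alone separates few genes from the rest. The called share was larger among genes whose exons are mostly covered by a gene on the opposite strand: 11.4% of 167 such genes were called higher and 14.4% lower, against 4.31% and 3.44% of the 15009 genes with no opposite exon. The kit keeps strand, but the strand setting of the counting was not given in the sources used here, so the part of this overlap in the calls was not tested.

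The label of whole seedlings was checked against tissue markers before the comparisons. The root list held 30 genes, of which 23 were listed in both sets and 22 were tested. Its summed level was 767 to 802 CPM in Col-0 soil and 2842 to 3068 CPM in Col-0 medium, and 10 of 22 were called lower and 0 higher. PYK10, a myrosinase abundant in roots, had 580, 561 and 561 CPM in Col-0 soil, against 2640 and 2443 CPM in Col-0 medium. Root markers were thus detected in both groups, and none that was listed in both sets was at 0. The leaf and shoot apex list had 0 of 13 tested genes called, with summed levels of 272 to 284 CPM in Col-0 soil and 338 to 348 CPM in Col-0 medium. The floral organ list reached 8.29 to 9.38 CPM in sum in Col-0 soil and 2.99 to 3.25 CPM in Col-0 medium.

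**Figure D1:**
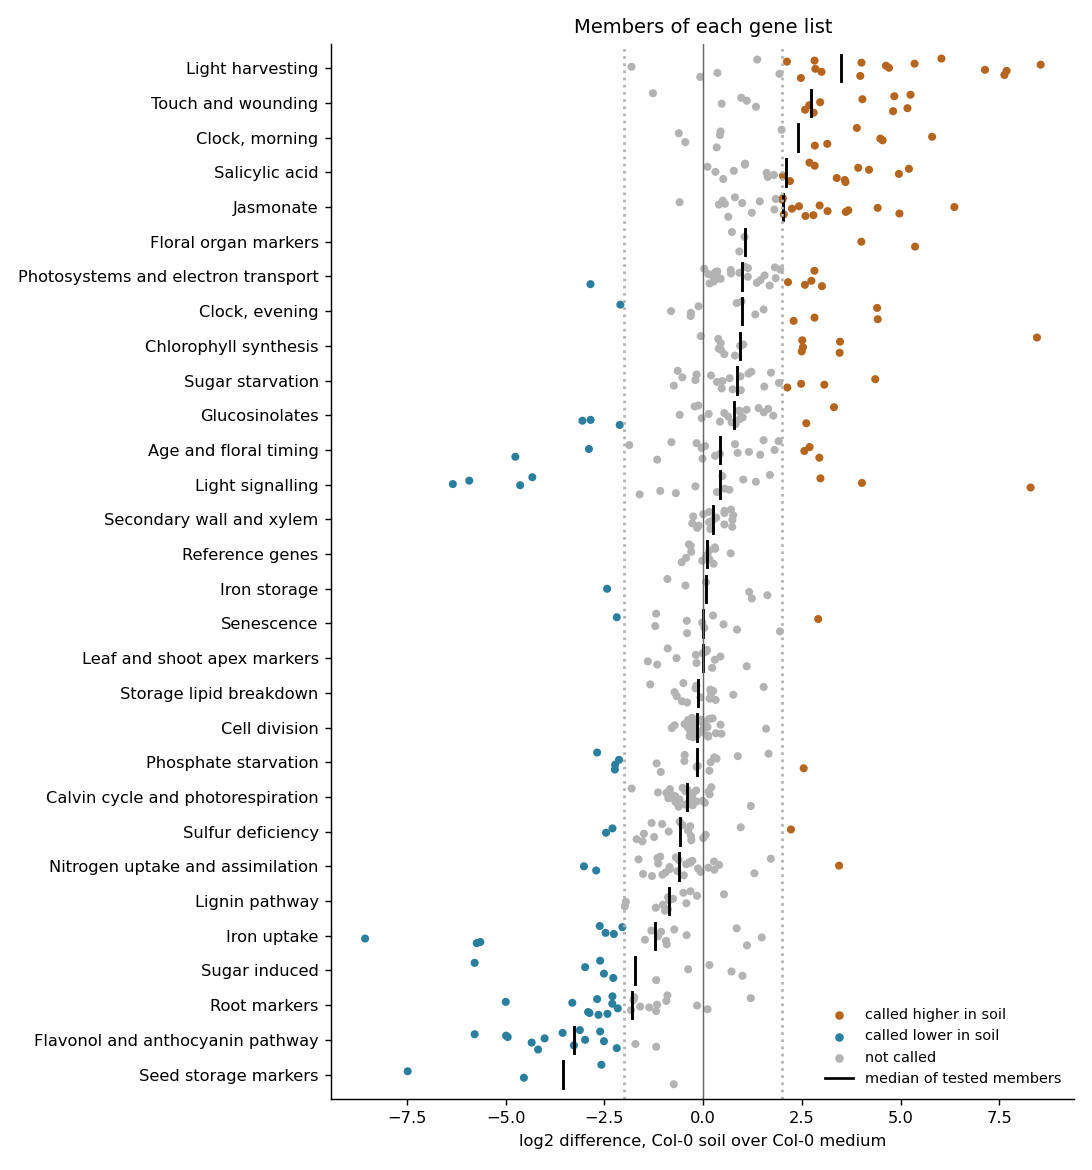
Log2 difference of each tested member, Col-0 soil over Col-0 medium, for the 30 gene lists ordered by their median, with 1 point per gene, a bar at the median and dotted lines at a 4-fold difference. Light harvesting lies farthest to the right with 15 of 20 members called higher, and the flavonol and anthocyanin list has 13 of 15 tested members called lower.

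The light-harvesting proteins, which bind chlorophyll around photosystem II (LHCB) and photosystem I (LHCA), gave the largest median rise of the 30 lists. Of 20 genes, 15 were called higher in Col-0 soil and 0 lower, and the median log2 difference was 3.49, against -0.005 over all genes tested. Together the 20 genes took 8.45 to 8.69% of the nuclear counts in Col-0 soil and 1.14 to 1.27% in Col-0 medium, an 8.33-fold difference in summed CPM.

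LHCB2.3, one of 3 near-identical copies of an antenna protein of photosystem II, had 1262, 1282 and 1362 CPM in Col-0 soil, against 4.27 and 2.74 CPM in Col-0 medium. Its difference of 8.55 (SE 0.165) was 374-fold, although 40.6% of its exon length is covered by a gene on the opposite strand. LHCB2.2 had 1616, 1700 and 1711 CPM in Col-0 soil, against 9.07 and 7.27 CPM in Col-0 medium. Reads can be split differently among such copies by different aligners, so sums over the copies are given as well. How reads that fit several copies were counted was not given, so the sums can be affected too. The 3 LHCB2 copies summed to 5139, 5409 and 5517 CPM in Col-0 soil, against 34.1 and 23.1 CPM in Col-0 medium, a 187-fold difference. The 5 LHCB1 copies, which encode the most abundant antenna protein, summed to 32564, 34326 and 33668 CPM in Col-0 soil, against 5259 and 4652 CPM in Col-0 medium, a 6.76-fold difference. Every soil sum lay far above every medium sum. Within LHCB1 the copies were uneven: LHCB1.1 differed 198-fold and LHCB1.3 only 3.81-fold, so LHCB1.3 was not called.

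Single-copy antenna genes showed the same direction. LHCB3, a component of the trimeric antenna, had 8518, 8773 and 8175 CPM in Col-0 soil, against 154 and 105 CPM in Col-0 medium (65.5-fold). LHCA4 had 8785, 9118 and 8964 CPM in Col-0 soil, against 239 and 199 CPM in Col-0 medium (40.9-fold). LHCB5, a monomeric linker of the antenna, had 9148, 8933 and 8593 CPM in Col-0 soil, against 1378 and 1141 CPM in Col-0 medium (7.06-fold). The groups were widely separated for each of these genes, and the spread within a group was small beside the gap.

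The 5 genes that were not called included both abundant and minor members. LHCB1.3, named above, and LHCB4.1, a form of the linker CP29 that differed 2.58-fold, are abundant. LHCB4.3, a minor paralogue of LHCB4.1, had 28.2, 29.1 and 29.1 CPM in Col-0 soil, against 102 and 100 CPM in Col-0 medium, and its difference of -1.81 did not reach the 4-fold limit. LHCA5 and LHCA6, rare antenna proteins of photosystem I, had differences of 0.36 and -0.08.

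**Figure D2:**
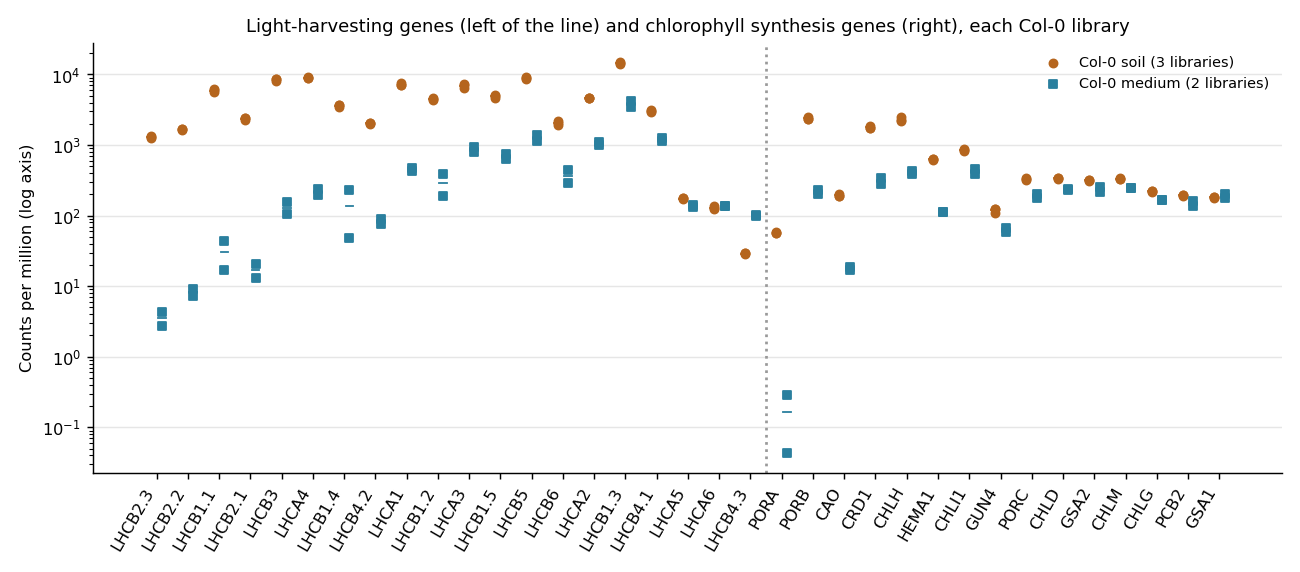
Level of each light-harvesting gene (left of the dotted line) and each chlorophyll synthesis gene (right) in CPM on a log axis, with 3 Col-0 soil libraries (circles), 2 Col-0 medium libraries (squares) and short bars at group means. LHCB2.3, LHCB2.2 and PORA show the widest gaps, while LHCA5, LHCA6 and GSA1 have similar levels in both groups and LHCB4.3 is lower in Col-0 soil.

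The genes of chlorophyll synthesis, a list chosen after values were seen, had 6 of 15 members called higher and 0 lower, with a median of 0.94 that was 0.48 without genes overlapping the opposite strand. PORA, which reduces protochlorophyllide in the light, had 56.7, 56.8 and 57.9 CPM in Col-0 soil, against 0.285 and 0.0428 CPM in Col-0 medium, a difference of 8.45 (SE 0.209). Its paralogue PORB had 2485, 2328 and 2370 CPM in Col-0 soil, against 234 and 200 CPM in Col-0 medium, while the third paralogue PORC differed by 0.80 and was not called. PORA was close to undetected in Col-0 medium. PORB was the main form in Col-0 soil, at 1459 CPM per kb against 184 for PORC, but was only slightly above PORC in Col-0 medium (132 against 105). HEMA1, the enzyme that commits glutamyl-tRNA to tetrapyrroles, had 634, 638 and 623 CPM in Col-0 soil, against 113 and 111 CPM in Col-0 medium. CHLH (5.69-fold), CRD1 (5.76-fold) and CAO (11-fold), which act in magnesium insertion, ring closure and chlorophyll b formation, were also called higher.

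Other photosynthesis genes moved less. Of 30 genes of the photosystem cores and electron transport, 5 were called higher and 1 lower, with a median of 0.99. The 5 were the photosystem I subunits PSAD2 (8.04-fold), PSAH2 (6.68-fold), PSAO (5.96-fold) and PSAF (4.43-fold) and the oxygen-evolving complex subunit PSBQ2 (7.04-fold). FD1, a leaf ferredoxin that passes electrons on from photosystem I, went against its list, with 72.0, 75.3 and 74.6 CPM in Col-0 soil, against 556 and 514 CPM in Col-0 medium.

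The 31 genes of the Calvin cycle and photorespiration had 0 called either way by edgeR's quasi-likelihood test and a median of -0.40. This is a list in which 28 of 31 members were separated between the groups (4 higher and 24 lower in Col-0 soil), beside 74% of all genes tested, and the differences were small. RBCS1A, the main gene of the small Rubisco subunit, had 14595, 14180 and 12766 CPM in Col-0 soil, against 14541 and 12360 CPM in Col-0 medium, and these ranges overlap. The 4 RBCS copies summed to 20286, 19993 and 18075 CPM in Col-0 soil, against 26432 and 24244 CPM in Col-0 medium. The antenna genes and the carbon fixation genes thus had medians of opposite sign in the same libraries.

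Per kb of gene length, 67 genes were shared by the 100 most abundant genes of each group. Light-harvesting genes filled 17 of these places in Col-0 soil and 5 in Col-0 medium. LHCB1.3 ranked first in Col-0 soil and RBCS1A first in Col-0 medium. MT2B, a copper-binding metallothionein, was among the 10 most abundant genes of Col-0 medium with 1218 and 1206 CPM, and had 16.3, 18.2 and 18.9 CPM in Col-0 soil. No opposite exon covers MT2B, and its difference of -6.09 (SE 0.0929) was 68.0-fold lower.

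The circadian clock lists were among the lists with the larger shifts in median rank. The plant clock is a loop in which morning MYB factors, a sequence of pseudo-response regulators (PRR) and an evening complex repress one another in turn. Of 12 morning genes, 6 were called higher in Col-0 soil and 0 lower (median 2.41). Without genes overlapping the opposite strand, which drops the called genes LNK1, LNK2 and LNK3 for overlaps of 0.3 to 9.2% of their exon length, the morning median was 0.43. Of 13 evening genes, 4 were called higher and 1 lower (median 0.97).

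PRR7, a daytime repressor of the clock, had 235, 228 and 239 CPM in Col-0 soil, against 3.99 and 4.41 CPM in Col-0 medium (55.6-fold). PRR5, which follows PRR7 in the day, had 321, 301 and 310 CPM in Col-0 soil, against 14.2 and 15.1 CPM in Col-0 medium (21.2-fold). GI, a scaffold protein of the evening that links the clock to flowering, had 230, 218 and 223 CPM in Col-0 soil, against 9.40 and 11.4 CPM in Col-0 medium (21.4-fold). These 3 genes were all among the higher-expressed clock genes of the soil libraries and among the low ones of the medium libraries. FKF1, a blue-light receptor of the flowering pathway, had 163, 169 and 161 CPM in Col-0 soil, against 21.1 and 25.4 CPM in Col-0 medium. The coactivators LNK1 (14.8-fold), LNK2 (22.4-fold) and LNK3 (23.3-fold) were called higher as well.

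The dawn genes CCA1 and LHY were low in both groups. CCA1 had 10.3, 11 and 11.1 CPM in Col-0 soil, against 1.28 and 1.16 CPM in Col-0 medium, and was called higher (8.83-fold). LHY had 3.93, 2.95 and 4.16 CPM in Col-0 soil, against 2.90 and 2.95 CPM in Col-0 medium, and its difference of 0.34 had a Benjamini-Hochberg adjusted p of 0.153 in edgeR's quasi-likelihood test. Among evening genes, TOC1 had 204, 200 and 195 CPM in Col-0 soil, against 91.9 and 111 CPM in Col-0 medium, and was not called. ELF4, a subunit of the evening complex, had 42.3, 41.6 and 40.9 CPM in Col-0 soil, against 68.9 and 77.2 CPM in Col-0 medium. BOA, a MYB-like evening factor, was called lower at -2.10, with 45.9% of its exon length covered by an opposite gene, and lost its call without soil replicate 3 (-1.98) or medium replicate 2 (-1.96). Since clock genes cycle over the day and the hour of harvest was not given, time of day and growth condition cannot be told apart for this list. The same limit holds for other genes that follow the clock, among them the light-harvesting genes and PCC1, which is described below.

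Promoters are shown for 6 called clock, light and flavonoid genes, chosen because a known clock or light element could be read in them. They are the 250 bases before each gene start on the gene's strand in the RefSeq annotation of TAIR10.1, and capitals mark the evening element AAAATATCT or its reverse complement AGATATTTT in the first 3 and the G-box CACGTG in the last 3.
PRR5 (chr5:8358547-8358796, minus strand): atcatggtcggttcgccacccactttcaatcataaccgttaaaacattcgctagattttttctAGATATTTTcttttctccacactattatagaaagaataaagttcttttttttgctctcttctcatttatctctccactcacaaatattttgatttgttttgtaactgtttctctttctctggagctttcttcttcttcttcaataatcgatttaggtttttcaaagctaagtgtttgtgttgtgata
FKF1 (chr1:25508389-25508638, plus strand): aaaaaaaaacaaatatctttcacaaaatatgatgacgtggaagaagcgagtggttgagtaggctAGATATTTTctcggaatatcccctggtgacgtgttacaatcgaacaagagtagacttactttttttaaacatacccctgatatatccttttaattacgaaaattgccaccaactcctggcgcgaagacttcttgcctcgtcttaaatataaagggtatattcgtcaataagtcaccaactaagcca
PORA (chr5:21992815-21993064, minus strand): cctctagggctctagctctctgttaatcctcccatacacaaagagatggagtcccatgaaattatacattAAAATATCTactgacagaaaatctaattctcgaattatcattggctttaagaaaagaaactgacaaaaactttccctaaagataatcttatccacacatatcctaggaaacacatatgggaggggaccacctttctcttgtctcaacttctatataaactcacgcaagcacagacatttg
PRR7 (chr5:642031-642280, minus strand): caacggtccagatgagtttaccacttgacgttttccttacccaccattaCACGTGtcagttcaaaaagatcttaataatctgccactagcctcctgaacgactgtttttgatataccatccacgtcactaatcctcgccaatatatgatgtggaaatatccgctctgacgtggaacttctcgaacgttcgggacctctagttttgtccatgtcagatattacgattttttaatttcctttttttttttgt
TT4 (chr5:4488226-4488475, plus strand): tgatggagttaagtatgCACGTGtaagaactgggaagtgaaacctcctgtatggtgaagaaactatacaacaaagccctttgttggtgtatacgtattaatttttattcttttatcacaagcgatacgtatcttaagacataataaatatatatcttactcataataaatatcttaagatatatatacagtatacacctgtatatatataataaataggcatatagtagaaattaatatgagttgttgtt
ELIP1 (chr3:8085670-8085919, minus strand): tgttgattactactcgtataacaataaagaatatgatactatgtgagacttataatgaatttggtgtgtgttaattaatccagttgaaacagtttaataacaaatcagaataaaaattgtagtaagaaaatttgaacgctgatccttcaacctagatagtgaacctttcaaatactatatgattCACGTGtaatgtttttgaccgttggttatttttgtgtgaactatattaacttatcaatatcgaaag
The evening element, searched on both strands, was found in 7 of 13 evening clock promoters (53.8%) and in 0 of 12 morning clock promoters. Over all 21814 shared genes with a promoter, 516 (2.37%) held it, as did 6.27% of the genes called higher and 2.23% of those called lower. PORA and PORB both carried it, and so did BOA, FLS1 and GPT2, which were called lower, and TOC1 and LHCA5, which were not called. The G-box was found in 6 of 12 morning clock promoters, against 6.83% of all promoters, and in 8.45% of the genes called higher and 6.99% of those called lower. It stands in promoters of genes that were higher in Col-0 soil (PRR7) and of genes that were lower (TT4, ELIP1). A match is a description of these letters and not a mapped binding site.

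**Figure D3:**
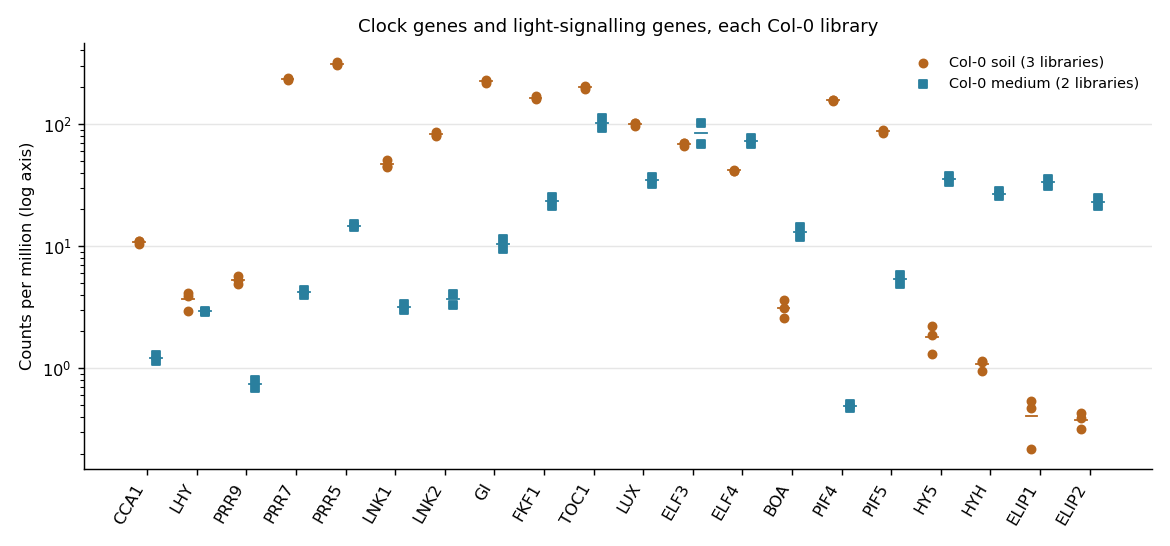
Level of clock genes (CCA1 to BOA) and light-signalling genes (PIF4 to ELIP2) in CPM on a log axis, with 3 Col-0 soil libraries (circles), 2 Col-0 medium libraries (squares) and bars at group means. PRR7, PRR5, GI and PIF4 stand high in Col-0 soil, LHY and ELF3 have overlapping groups, and HY5, HYH, ELIP1 and ELIP2 stand high in Col-0 medium.

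Light signalling split into opposite groups. In this list, chosen after values were seen, 3 of 18 genes were called higher and 4 lower. Phytochrome-interacting factors (PIF) are basic helix-loop-helix factors that promote elongation and are broken down when phytochrome is activated, while HY5 and HYH are bZIP factors that promote de-etiolation. PIF4 had 158, 155 and 157 CPM in Col-0 soil, against 0.475 and 0.513 CPM in Col-0 medium, a 313-fold difference. PIF5 had 84.8, 87.4 and 89.1 CPM in Col-0 soil, against 5.84 and 4.92 CPM in Col-0 medium. IAA29, an auxin-response repressor induced by PIFs, was called higher too (7.83-fold), whereas PIF1 and PIF3 had differences of 0.66 and -0.69.

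HY5 had 1.86, 2.2 and 1.3 CPM in Col-0 soil, against 33.3 and 37.7 CPM in Col-0 medium, a difference of -4.33. Its paralogue HYH was 24.8-fold lower. ELIP1, an early light-inducible protein that protects chloroplasts under strong light, had 0.476, 0.536 and 0.217 CPM in Col-0 soil, against 35.4 and 30.9 CPM in Col-0 medium (81.0-fold lower). ELIP2 was 60.7-fold lower. ELIP1 and ELIP2 rested on 5 to 12 counts in each soil library, whereas HY5 and HYH were low but detected there with 21 to 47 counts.

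Flavonoid genes were lower in Col-0 soil nearly as a block. The list of flavonol and anthocyanin genes, chosen after values were seen, had 13 of 15 tested members called lower and 0 higher, with a median of -3.28. TT4, the chalcone synthase CHS that opens the pathway, had 17.3, 18.2 and 15.5 CPM in Col-0 soil, against 1063 and 809 CPM in Col-0 medium (55.2-fold lower). FLS1, which makes flavonols, had 6.82, 7.13 and 6.81 CPM in Col-0 soil, against 251 and 189 CPM in Col-0 medium (31.8-fold lower). TT7, which hydroxylates the B ring, was 30.9-fold lower, and MYB111, an activator of flavonol genes, was 8.71-fold lower. The late anthocyanin genes varied more between the medium libraries: DFR had 2.70, 2.90 and 3.82 CPM in Col-0 soil, against 30.4 and 8.26 CPM in Col-0 medium, and without medium replicate 1 its difference of -1.4 and that of LDOX (-1.83) were no longer called. The glycosyltransferase gene AT1G06000 was called lower with 99.6% of its exon length under an opposite gene, so its difference is uncertain. RHM1, which supplies UDP-rhamnose, and PAP1, a MYB activator of anthocyanin genes, were not called, at -1.72 and -1.19.

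Called genes of the salicylic acid and jasmonate lists all lay in 1 direction, and the hormones themselves were not measured. Of 20 salicylic acid genes, 11 were called higher in Col-0 soil and 0 lower, with a median of 2.11. WRKY70, a transcription factor downstream of salicylic acid, had 74.0, 73.3 and 72.2 CPM in Col-0 soil, against 3.75 and 4.19 CPM in Col-0 medium (18.4-fold). WRKY18 differed 15.2-fold and the glucanase PR2 37.0-fold. The marker PR1 rested on 153 counts in Col-0 soil and 3 in Col-0 medium, a ratio of 33.9 with a 95% interval of 11.4 to 166 that covers counting error only. The upstream genes EDS5, EDS1 and PAD4 had differences of 0.11, 0.31 and 0.78 and were not called. The biosynthesis gene ICS1 had a difference of 1.63, also short of the limit. Other upstream genes were called higher, namely its paralogue ICS2 (4.58-fold), the synthesis gene PBS3 (7.08-fold) and the transcription factor genes SARD1 (10.4-fold) and CBP60G (6.46-fold), so called members lay on both sides of the hormone.

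Of 25 tested jasmonate genes, 14 were called higher and 0 lower, with a median of 2.02. JAZ proteins, repressors that are themselves induced by jasmonate, made up 7 of the 14. JAZ9 had 355, 354 and 355 CPM in Col-0 soil, against 32.2 and 25.9 CPM in Col-0 medium (12.2-fold). JAZ7 had 19.0, 19.7 and 18.1 CPM in Col-0 soil, against 0.142 and 0.300 CPM in Col-0 medium (82.1-fold). The soil libraries agreed closely for both genes. Among biosynthesis genes, LOX4 (12.8-fold), AOC1 (7.72-fold), LOX3 (6.92-fold), OPR3 (4.75-fold) and AOS (4.05-fold) were called. VSP2, a storage protein used as a marker, had 36.9, 36.4 and 36.6 CPM in Col-0 soil, against 13.9 and 4.62 CPM in Col-0 medium, and was just past the limit at 4.01-fold. Its call was lost without medium replicate 2 (1.4) and without any single soil library (1.99 to 2.00). PDF1.2A, a defensin marker of the jasmonate and ethylene branch, had 1.43, 1.02 and 0.694 CPM in Col-0 soil, against 0.095 and 1.07 CPM in Col-0 medium, with overlapping groups, and was called only without medium replicate 2 (3.40).

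Genes that respond within minutes to touch or wounding, a list chosen after values were seen, had 9 of 14 tested members called higher and 0 lower, with a median of 2.74. TCH4, a xyloglucan endotransglucosylase named for its response to touch, had 465, 480 and 441 CPM in Col-0 soil, against 12.2 and 12.1 CPM in Col-0 medium (38.1-fold). CYP94C1, which inactivates the active jasmonate, differed 36.1-fold, and ERF2 differed 28.6-fold. PHI-1, an early-response gene of the exordium family, differed 28-fold. Handling at harvest was not described in the sources used here, and its part was not tested.

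Glucosinolate genes, which make the sulfur-rich defence compounds of the cabbage family, had 2 of 24 tested members called higher and 3 lower. MYB51, the regulator of the indolic branch, had 31.1, 32.1 and 28.7 CPM in Col-0 soil, against 5.60 and 4.45 CPM in Col-0 medium, and CYP81F2, which modifies indolic glucosinolates, differed 9.93-fold. The myrosinases TGG4 (8.33-fold lower) and TGG5 (7.21-fold lower), known from roots, were called lower. TGG1 and TGG2, the myrosinases of leaves, had differences of 1.4 and 1.65 and were not called. The leaf and root myrosinases thus lay on opposite sides of zero, and the root marker list lay on the side of TGG4 and TGG5.

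Among root markers, the root hair genes PRP3 and COBL9 were called lower, COBL9 only with medium replicate 1 in the fit (-1.91 without it). PRP3 had 3.33, 2.73 and 2.78 CPM in Col-0 soil, against 36.2 and 23.1 CPM in Col-0 medium (9.95-fold lower). HAK5, a potassium transporter induced by low potassium, had 0.198, 0.107 and 0.173 CPM in Col-0 soil, against 6.89 and 4.02 CPM in Col-0 medium. CASP1, a scaffold of the endodermal barrier, had 6.03, 5.47 and 4.94 CPM in Col-0 soil, against 18.8 and 20.2 CPM in Col-0 medium, a difference of -1.83 that was not called. TIP2;3, a root aquaporin, went the other way at 1.2, and the stelar genes SKOR and PHO1 had differences of 0.11 and -0.15. The median of the root list was -1.80, against -0.005 over all genes tested.

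The nutrient lists hold many root genes and moved beside the root markers, whose part in them was not tested. Only genes listed in both sets were compared: 18 of 24 iron uptake, 17 of 26 phosphate, 29 of 34 nitrogen and 19 of 20 sulfur genes. Every gene listed for soil was also listed for medium. A gene listed for medium only could not be called lower, so the loss is one-sided. Of 18 iron uptake genes, 7 were called lower and 0 higher, with a median of -1.23. AT2G30766 had 0.0397, 0.322 and 0.130 CPM in Col-0 soil, against 53.8 and 63.4 CPM in Col-0 medium, a difference of -8.56 (SE 0.218) and the largest fall among all list members. The loci AT1G47400 and AT1G47395 were 50.0-fold and 53.2-fold lower. All 3 were lower in every soil library than in either medium library. PYE, a regulator of iron deficiency, and the nicotianamine synthase genes NAS1 and NAS2 were called lower at -2.26, -2.05 and -2.62. The uptake genes themselves were not called: the iron transporter gene IRT1 had 4.2, 4.02 and 3.47 CPM in Col-0 soil, against 8.64 and 4.41 CPM in Col-0 medium, and the ferric reductase gene FRO2 had 5.63, 4.88 and 4.86 CPM in Col-0 soil, against 3.23 and 1.58 CPM in Col-0 medium. Ferritin FER1, which stores iron, had a difference of -0.91.

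Phosphate starvation genes had 1 of 17 called higher and 4 lower (median -0.17, and -0.35 without medium replicate 1). The 4 were the transporters PHT1;1 and PHT1;4, the phosphatase PAP17 and the ribonuclease RNS1, and MGD3, a galactolipid synthase of phosphate-starved plants, was called higher at 2.55. The phosphate sensor gene SPX1 had overlapping groups, with 7.22, 9.11 and 10.3 CPM in Col-0 soil, against 9.92 and 14.5 CPM in Col-0 medium. Nitrogen genes had 1 of 29 called higher and 2 lower (median -0.62), with the ammonium transporter AMT1;2 at 6.54-fold lower. The called share of the nitrogen list was 10.3%, against 7.34% over all genes tested. Sulfur deficiency genes had 1 of 19 called higher and 2 lower (median -0.60, with -0.32 without medium replicate 1 and -0.95 without medium replicate 2), among them the reductase gene APR3 at 4.92-fold lower (-1.94 and not called without medium replicate 1) and the ATP sulfurylase gene APS3 at 4.67-fold higher.

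Sugar-responsive genes lay on both sides. Of 22 genes induced by sugar starvation, 4 were called higher in Col-0 soil and 0 lower (median 0.84, with 0.35 without medium replicate 1 and 1.39 without medium replicate 2). ASN1, an asparagine synthetase repressed by sugar, had 138 CPM in each soil library, against 1.42 and 11.7 CPM in Col-0 medium (20.5-fold). TPS8 and TPS11, trehalose-phosphate synthase-like proteins, differed 8.38-fold and 5.58-fold. SEN1 (also DIN1) had 50.4, 53.8 and 44.4 CPM in Col-0 soil, against 6.79 and 44.1 CPM in Col-0 medium. The medium libraries disagreed on this gene and on ASN1 by more than the soil libraries did. Of 10 sugar-induced genes, 5 were called lower and 0 higher (median -1.73, and -0.84 without medium replicate 1), but 4 of the 5 (TT4, DFR, LDOX and TT8) belong to the flavonoid list. GPT2, a glucose-6-phosphate translocator, was the fifth, with 0.516, 0.483 and 0.607 CPM in Col-0 soil, against 3.28 and 2.01 CPM in Col-0 medium, and its call was lost without medium replicate 1 (-1.89).

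Genes of plant age and flowering time had 3 of 21 called higher and 2 lower (median 0.42, and 0.80 without genes overlapping the opposite strand). SOC1, a MADS factor that integrates flowering signals, had 90.5, 94.3 and 88.6 CPM in Col-0 soil, against 15.3 and 15.5 CPM in Col-0 medium (5.90-fold). SPL4, a target of the juvenile microRNA miR156, differed 7.68-fold and AGL24 6.47-fold. FT, the mobile flowering signal, went against them with 0.238, 0.483 and 0.217 CPM in Col-0 soil, against 11.1 and 5.48 CPM in Col-0 medium (27.0-fold lower). SMZ, a repressor of FT, was 7.43-fold lower with 30.6% of its exon length under an opposite gene. The repressor FLC was 3.66-fold lower and not called. FT transcript peaks late in long days, so that here too the hour of harvest and growth condition cannot be told apart.

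Floral organ and seed genes were near the detection limit. AP1 rested on 139 counts in Col-0 soil and 2 in Col-0 medium, a ratio of 46.1 with an interval of 12.5 to 385. AG rested on 54 and 2 counts, a ratio of 17.9 with an interval of 4.73 to 152. The seed oil-body gene OLEO2 had 0 counts in all 3 soil libraries and 44 in the 2 medium libraries, so it was at least 22.1-fold lower at a floor of 3 counts over the group. With OLEO2 at that bound, the median of the 4 tested seed storage genes was -3.52, against -3.56 as fitted. The fitted median depended on single libraries, at -1.28 without medium replicate 1, -2.71 without medium replicate 2, -2.19 without soil replicate 1 and -4.43 without soil replicate 2. Genes of storage lipid breakdown, active when a germinating seed lives on oil, had 0 of 16 called, with a median of -0.12.

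Several lists had no called member by edgeR's quasi-likelihood test. Over all genes tested the called share was 7.34%, so a short list can hold no called member without standing apart. The same holds for the leaf and shoot apex list and the storage lipid list above. Of 35 cell division genes 0 were called, with a median of -0.15, and CYCB1;1 had 9.28, 9.70 and 9.93 CPM in Col-0 soil, against 13.2 and 12 CPM in Col-0 medium. Of 18 secondary wall genes 0 were called (median 0.25). Of 14 lignin genes 0 were called (median -0.88), with PAL1 just short of the limit at 3.96-fold lower. Of 14 genes commonly used as references 0 were called, with a median of 0.09. Senescence genes had 1 of 12 called higher, WRKY53 at 7.53-fold, and 1 lower, SAG29 (-1.50 and not called without medium replicate 1), while SAG12 had 0 counts in all 5 libraries.

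Gene families drawn from the annotation were compared in the same way. Extensin-like proteins, hydroxyproline-rich proteins of the cell wall that are strong in root hairs, had 12 of 21 tested members called lower and 2 higher, with a median of -2.58. EXT3 averaged 84.6 CPM in Col-0 soil and 903 CPM in Col-0 medium. Lipid transfer proteins had 20 of 61 called lower and 3 higher (median -0.96), class III peroxidases had 13 of 53 lower and 1 higher (median -0.77), and jacalin lectins had 8 of 26 lower and 1 higher (median -1.33). In the jacalin family, 4 neighbouring loci led, with AT1G52070 at 1.07, 1.29 and 1.17 CPM in Col-0 soil, against 94.8 and 85.3 CPM in Col-0 medium. These 4 families moved beside the root marker list, whose 22 tested members had 10 lower, and the part of root content in them was not tested.

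Among enzymes of detoxification, lower calls outnumbered higher ones in some families. Glutathione transferases had 11 of 47 called lower and 0 higher, with GSTU25 averaging 3.23 CPM in Col-0 soil and 40.8 CPM in Col-0 medium. UDP-glycosyltransferases had 21 of 112 called lower and 3 higher. Cytochrome P450 genes were nearly balanced, with 16 of 168 higher and 14 lower. Heat shock proteins had 4 of 56 called lower and 0 higher, a called share of 7.14% that is near the 7.34% over all genes tested.

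Families with more higher calls were mostly regulators and receptors, but other families of these kinds were nearly balanced. MYB factors had 5 of 74 called higher and 5 lower, and NAC factors 5 of 63 higher and 4 lower. Leucine-rich repeat kinases had 5 of 139 higher and 7 lower. Ethylene-response and AP2 factors had 16 of 64 called higher and 5 lower, led among well-expressed members by ERF2, at 70.4 CPM on average in Col-0 soil and 2.46 CPM in Col-0 medium. SAUR genes, small auxin-induced proteins of elongating cells, had 12 of 53 higher and 4 lower. WRKY factors had 11 of 56 higher and 4 lower, and cysteine-rich receptor-like kinases 9 of 30 higher and 2 lower. NLR immune receptors had 10 of 124 higher and 1 lower, a called share of 8.87% that is near the 7.34% over all genes tested. RPP4, an NLR gene of downy mildew resistance, averaged 175 CPM in Col-0 soil and 43.4 CPM in Col-0 medium. Large housekeeping families barely moved: ribosomal proteins had 1 of 339 called, pentatricopeptide repeat proteins 1 of 253 and histones 1 of 42.

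Outside the lists, PCC1, a small protein under pathogen and circadian control, had 79.0, 81.0 and 72.0 CPM in Col-0 soil, against 0.095 and 0.0856 CPM in Col-0 medium, a difference of 9.66 (SE 0.189). LURP1, a gene required for late defence responses, differed by 7.58. Among the largest falls, several had an opposite gene over most of their exons: CYP81F4 (88.2% covered, -7.74), UGT75B1 (100% covered, -6.51) and TCP3 (82.6% covered, -6.30). The differences of these 3 genes are therefore uncertain. PRP1, a proline-rich cell wall protein, and the lectin locus AT1G52100 had falls of similar size (-6.17 and -6.08) with no opposite exon.

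Ranks within each library need no scaling between groups. Genes were ranked by counts per kb within each library, and the median percentile of each list was compared. The median of touch and wounding genes lay 49.9 percentile points higher in Col-0 soil, that of evening clock genes 31.0, jasmonate genes 30.3, salicylic acid genes 25.1 and morning clock genes 21.2. Different genes can stand at the median in each group, so such a shift need not be the shift of single members. For evening clock genes, GI stood there in Col-0 soil and FKF1 in Col-0 medium. Senescence genes shifted by 18.9 points with a median log2 difference of 0.002. Light signalling genes shifted by -17.1 points with a median log2 difference of 0.42. Flavonoid genes lay lower by -53.9 points, iron uptake genes by -33.3, root markers by -20.7 and sulfur genes by -17.4. Light-harvesting genes lay 2.52 points higher, at a median percentile of 99.9 in each Col-0 soil library, against 97.3 and 97.5 in Col-0 medium, close to the top of the scale in both groups. With 3 against 2 libraries an exact two-sided permutation test has 10 arrangements and cannot go below p = 0.1, and 27 of the 30 lists reached that value. Reference genes, which moved by only 0.385 points, were among the 27, so reaching it does not set a list apart. The touch and wounding and flavonoid lists, which moved most, were chosen after values were seen. In the same exact permutation test, leaf and shoot apex markers, cell division and iron storage gave p = 0.3, 0.5 and 0.9 in that order.

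**Figure D4:**
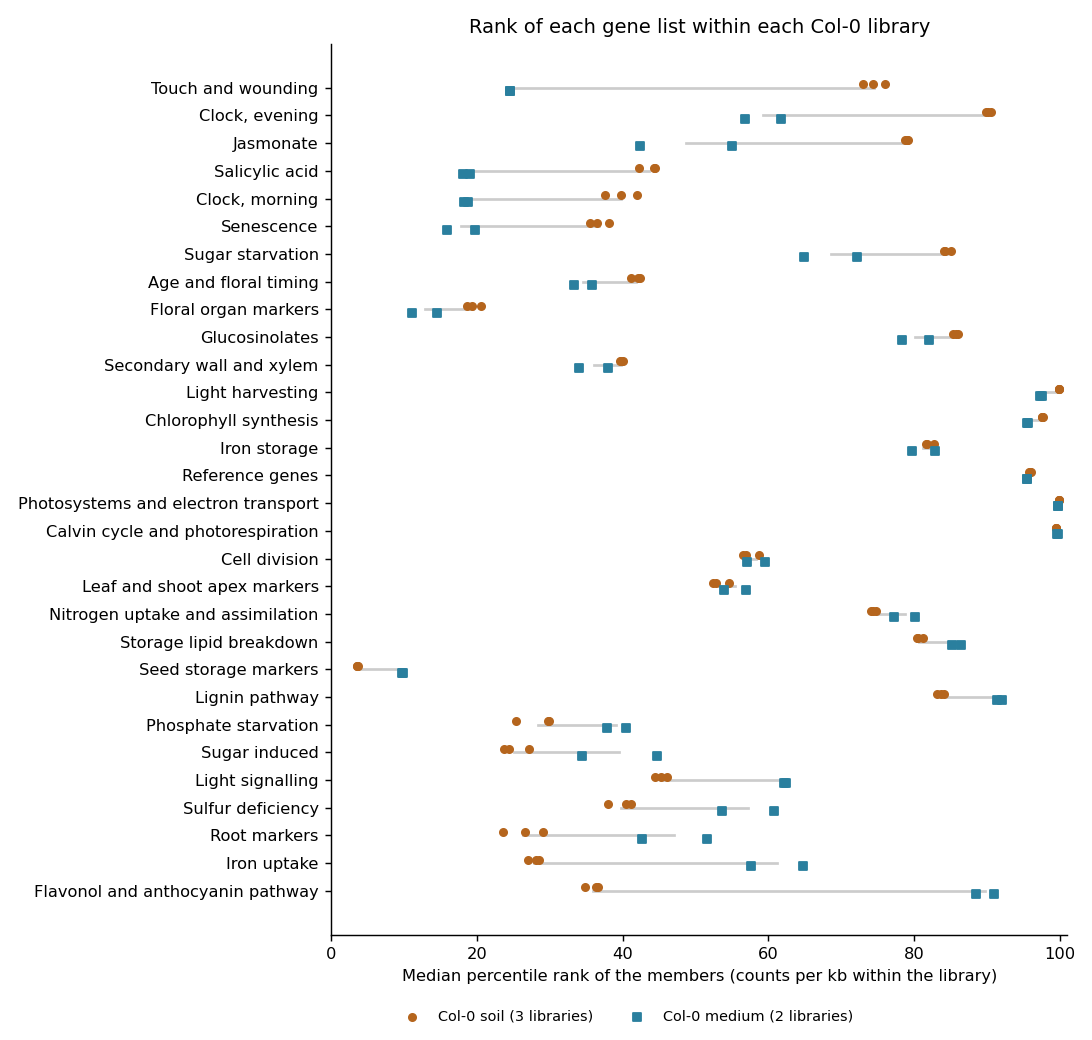
Median percentile rank of the members of each list within each library, by counts per kb, for 3 Col-0 soil libraries (circles) and 2 Col-0 medium libraries (squares), joined by a grey line between group means. Touch and wounding genes are separated by 49.9 points and flavonoid genes by -53.9 points, while cell division and iron storage overlap.

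By single genes, PCC1 moved by 85.4 percentile points, PIF4 by 81.2, PORA by 76.0 and PRR7 by 73.9. In the other direction AT1G52070 moved by -76.7 points, AT2G30766 by -75.1, ELIP1 by -73.3, EARLI1, a lipid transfer-like protein, by -72.6 and COPT2, a copper transporter, by -69.7. CYP81F4 (-83.1 points) and TCP3 (-75.9 points) shifted as far but carry the opposite genes named above.

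The same contrast in ibm1-1, with 3 soil and 2 medium libraries grown and processed alongside, called 5.88% of 20085 genes, of which 656 were higher (3.27%) and 525 lower (2.61%). Of genes tested in both genotypes, 803 were called in the same direction in both, which is 56.1% of the 1431 Col-0 calls and 76.5% of the 1050 ibm1-1 calls. Another 4 were called in opposite directions. The shared age and substrate, and any difference in processing, apply to both genotypes, so this overlap is no separate evidence for any of them.

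Light-harvesting genes had 15 of 20 called higher in Col-0 and 14 of 20 in ibm1-1, with medians of 3.49 in Col-0 and 2.89 in ibm1-1. Flavonoid medians were -3.28 in Col-0 and -2.92 in ibm1-1, root marker medians -1.80 in Col-0 and -1.67 in ibm1-1, and morning clock medians 2.41 in Col-0 and 3.54 in ibm1-1. The touch and wounding list had 9 of 14 called higher in Col-0 (median 2.74) but 1 of 15 in ibm1-1 (median 0.27). TCH4, for example, had 55.5, 53.9 and 54.2 CPM in ibm1-1 soil, against 27.7 and 24.2 CPM in ibm1-1 medium, and its soil-over-medium difference was larger in Col-0 by 4.18 on the log2 scale, with an interaction term past the threshold. Jasmonate genes had 14 of 25 called higher in Col-0 (median 2.02), and 0 higher and 3 lower in ibm1-1 (median 0.79). Seed storage genes had 3 of 4 called lower in Col-0 and 7 of 8 called higher in ibm1-1, where the cruciferin gene CRA1 had 19.5, 19.0 and 22.1 CPM in soil.

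**Figure D5:**
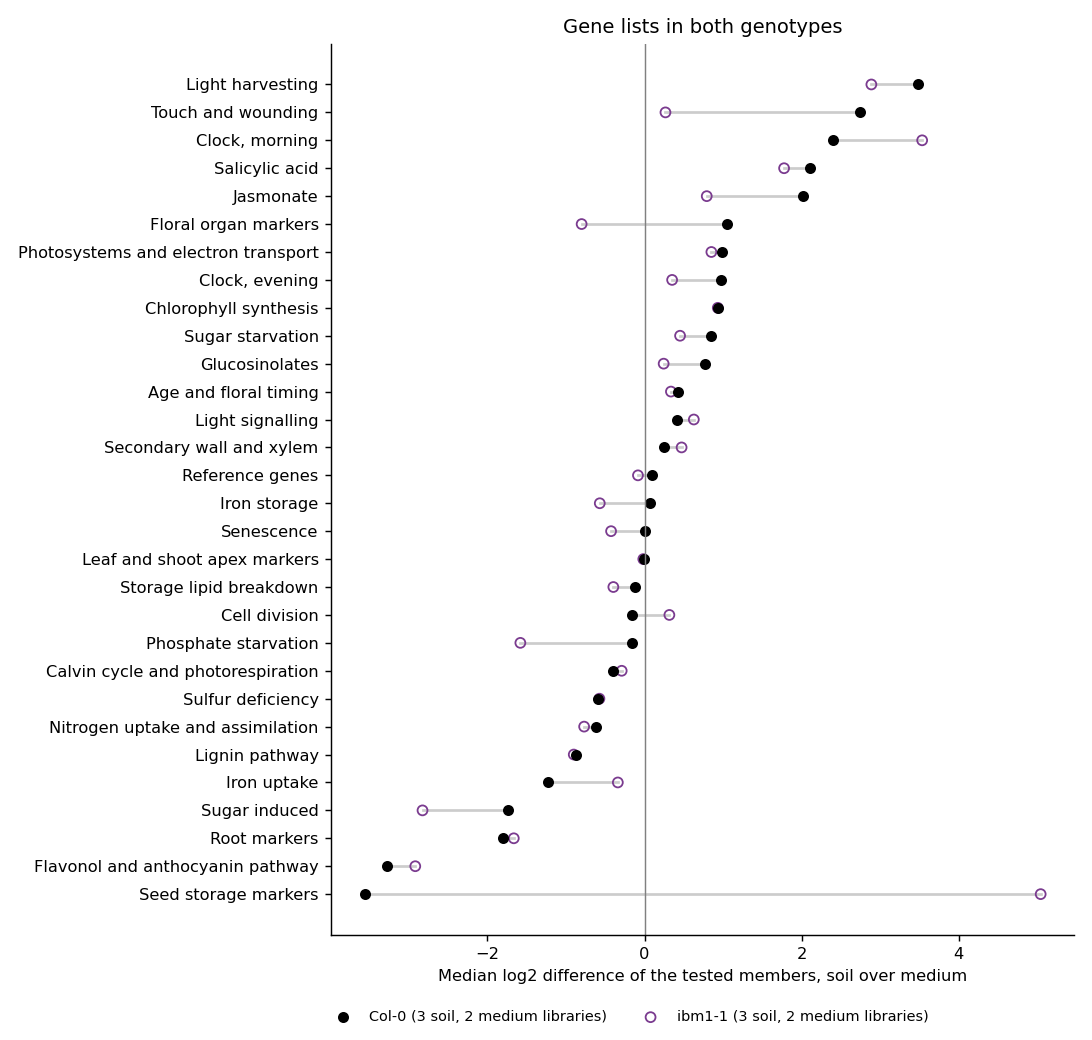
Median log2 difference of the tested members of each list, soil over medium, in Col-0 (filled circles) and in ibm1-1 (open circles), with 3 soil and 2 medium libraries for each genotype. Light harvesting (3.49 and 2.89) and flavonoids (-3.28 and -2.92) lie close together, while touch and wounding (2.74 and 0.27) and seed storage (-3.56 and 5.05) lie apart.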

How the data were processed

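The counts are whole numbers of reads per gene, made by the authors and deposited as 1 table per growth condition. Per the study's methods, soil reads were cleaned with SolexaQA and cutadapt, aligned to TAIR10 with TopHat and counted with HTSeq, whereas medium reads were cleaned with Trimmomatic, aligned with HISAT and counted with HTSeq. The submitters' processing notes name Trimmomatic 0.36, HISAT2 2.1.0 and HTSeq 0.9.1 for both. Treatment of reads that fit several genes and the strand setting were not given in the sources used here.

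Genes listed for both conditions were kept, organelle genes were left out, and low counts were removed with filterByExpr of edgeR 4.0.16 (R 4.3.3). Counts were scaled by TMM and fitted with glmQLFit and glmQLFTest over the 5 Col-0 libraries without covariates. The counts of 19924658 to 27001069 per library left a biological coefficient of variation of 0.0735 on 3 residual degrees of freedom. The study describes the replicates as biological, and p-values measure the spread between these libraries only. Intervals and floors of 3 counts cover counting error only. The script recovered 200 of 200 genes changed 8-fold in simulated data for Col-0 soil against Col-0 medium (19729 genes), with 0 false calls. The changed genes all had a mean above 5 CPM, and every gene was given the same biological spread. Recovery of lower genes and of changes near 4-fold was therefore not tested.

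The members and lists were chosen with earlier results of these data known, and 4 lists (flavonol and anthocyanin pathway, chlorophyll synthesis, light signalling, touch and wounding) were added after values were seen. Named genes were the anchor genes of each list, up to 3 called members with the largest rise and 3 with the largest fall, called members against their list, the 10 largest rises and 10 largest falls overall among called genes with a mean of at least 10 CPM, separate groups and a count in every library, and the 5 most abundant genes per group. Further members were named after their values were seen to describe a list. Alternatives covered scaling, filters, DESeq2 1.42.0, limma 3.58.1, fold limits, a replicate block, genes with opposite partners and each library left out. Names, positions and sequences come from RefSeq's annotation of TAIR10.1, which matched 21815 of 21847 shared nuclear genes.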

Additional observations from a re-analysis of the deposited data

Results flagged for a closer look

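Named genes are given here where the soil-over-medium difference was not the same in the 2 genotypes, by an interaction term in edgeR's quasi-likelihood test over 10 libraries with a difference above 1 on the log2 scale and an adjusted p below 0.05. The interaction passed this limit for 1317 of 20127 genes tested. Each value is the difference in Col-0 minus the difference in ibm1-1, so that a positive value means a larger rise, or a smaller fall, in Col-0 soil.

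Touch, wounding and jasmonate genes had CYP94C1 at 5.28, PDF1.2A at 4.97, JAZ7 at 4.59, JAZ8 at 4.36, TCH4 at 4.18, ERF2 at 3.65 and LOX2 at 1.58. Salicylic acid and related genes had PCC1 at 6.66, LURP1 at 6.15, PR1 at 4.72, PR2 at 1.62 and WRKY70 at 1.5. The indolic glucosinolate genes CYP81F2 and MYB51 stood at 2.36 and 1.34, and the senescence genes SAG29 and SAG13 at 2.09 and 1.45.

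Seed genes had the widest gaps, with OLEO2 at -10.24, OLEO1 at -9.52 and CRA1 at -7.70, all near 0 counts in Col-0 soil. The iron loci AT1G47400, AT2G30766 and AT1G47395 stood at -5.07, -5.01 and -4.72, IRT1 at -3.11, FRO2 at -2.60 and the ferritin gene FER2 at -1.20, whereas FER1 stood at 2.17. The lipid transfer locus AT4G22517 stood at -3.04 and the lectin loci AT1G52070 and AT1G52100 at -2.86 and -2.70. Of the nutrient genes, MGD3 stood at 3.78, SPX1 at 1.77, APS3 at 1.71 and PHT1;4 at 1.23, and NRT2.1 at -1.06. The root aquaporin TIP4;1 stood at -1.03.

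Among floral and age genes, AP1 stood at 6.16 and AG at 4.0 on very few counts, SPL4 at 1.22, AGL24 at 1.01 and FLC at -1.26. Light and clock genes had LHCB1.1 at 2.33, AT3G55240 at 1.70, PIF4 at 1.49 and LHCB3 at 1.01, against ELIP1 at -1.96, CCA1 at -1.22, CHS at -1.11, HYH at -1.10 and FD1 at -1.04.

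A further 51 nuclear genes had a mean count of at least 200 in the Col-0 medium libraries but were listed for those libraries only, so they entered no comparison. Of these, 42 overlap a gene on the opposite strand, and 41 have more than 25% of their exon length covered by it. Among them, GER1 had 19001 and 22139 counts with 92.2% covered, and F3H, an enzyme of the flavonoid pathway, had 3829 and 2894 counts with 93.8% covered. Together all 11690 genes listed for the medium libraries only took 0.642 to 0.665% of the counts of these libraries.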

How the results depend on the processing

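The 781 higher and 672 lower calls stayed within 1.5 times under other scalings, no filter, DESeq2 (786 and 673), limma and the fit over 10 libraries, and were 742 to 834 and 647 to 726 when each library was left out. A mean of at least 5 CPM gave 382 and 374, a fold limit of 2 gave 2031 and 1957, and a fold limit of 8 gave 389 and 235. For list members, the 70 higher and 41 lower calls became 124 and 82 at a fold limit of 2 and 37 and 11 at 8, with 24 lower at a mean of at least 5 CPM. Of 97 called named genes, 83 kept call and direction in every setting other than the fold limit of 8 in which they were tested. Signs changed only for genes that were not called: under library size only MYB60 was -0.0029, RBCS1A -0.19, UBQ10 -0.16 and PCK1 -0.055, leaving out 1 library gave RBCS1A -0.070 (without medium replicate 2), -0.0014 (without soil replicate 1) and up to 0.163 (without medium replicate 1), and PDF1.2A -0.017 (without medium replicate 1) to 3.40 (without medium replicate 2, where it was called). Of 628 values of list medians, 82 moved by more than the spread and 16 took the other sign, all in 6 lists with medians of -0.17 to 0.09 as reported (leaf and shoot apex, storage lipid breakdown, phosphate, iron storage, senescence and reference genes), at -0.23 to 0.06. The shift of light-harvesting ranks was 3.29 points without division by length and 2.77 over genes past the filter. The ibm1-1 alternatives, chosen after seeing the data, gave 622 to 732 higher and 525 to 536 lower calls when each library was left out. The called share fell with gene length, from 10.7% among the shortest 3958 genes to 4.23% among the longest 3946. Genes with a few counts, such as AP1 and OLEO2, are limited by depth.

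Replicate numbers did not pair the samples, since deviations of same-numbered libraries correlated at -0.023 and -0.043. With the replicate number as a block, 779 genes were called higher and 692 lower in Col-0, 71 and 40 among list members, and 665 and 524 in ibm1-1.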
